A study of Mus musculus with 8 samples.

Results

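The 8 arrays of the series ask whether the effect of rcCHIL3 on neural stem cells (NSCs) was the same early and late. The quantity described is the medium by time interaction, that is, the difference between rcCHIL3 and control at 7 days minus the same difference at 3 days. All 8 of the 8 arrays enter it, with 2 arrays in each of 4 groups. NSCs from adult mouse brain, as the series states, were grown as secondary neurospheres, which are floating colonies raised from dissociated primary colonies. The methods of the study name embryonic or adult forebrain striatum for neurospheres, so that the age of the source is not settled. The cells were cultured in rcCHIL3 for 3 days, in rcCHIL3 for 7 days, in MHM + GF for 3 days or in MHM + GF for 7 days. In the labels these are RcECF-L or ECF-L (an older name of CHIL3) and MHM at 3D and 7D. All groups share the base medium MHM (medium hormone mix). The control had EGF and FGF-2 added, whereas rcCHIL3 was MHM conditioned by HEK293T cells, a human kidney cell line, that carried a transfected Chil3 gene. Growth factors, conditioning by these cells and CHIL3 therefore differed together between the media and cannot be told apart. The 2 arrays of a group came from independent experiments. Of 45101 probe sets, 15679 were measured, and 8975 genes could be named among them.

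CHIL3 (Ym1, ECF-L) is a secreted, chitinase-like protein best known from alternatively activated macrophages. NSCs in EGF and FGF-2 divide through receptor tyrosine kinase and ERK signaling, and withdrawal of these factors lets them leave the cycle and turn into astrocytes, oligodendrocytes and neuroblasts. Neurosphere cultures also change with time in any one medium as the spheres grow. An effect measured at one time can therefore differ from that at another through either medium, and the interaction gives the net of both changes.

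Signals are the linear MAS5 intensities that the authors deposited, rescaled so that each array averaged 100. Between 30.1% and 31.5% of probe sets reached a signal of 50 on each array. The 2 arrays of a group correlated with r of 0.992 to 0.994, and no array stood apart. The brightest probe set of each array lay between 3372 and 3875. Of 8 neural stem cell markers, 7 were on the array, with summed signals of 6990 to 9576. The brightest was Fabp7 or Vim, with group means of 2494 to 2982. In MHM + GF at 3 days all 7 reached a mean signal of 50, and in each other group 6 did. Nes, by its brightest probe set, was between 8.7 and 32.2 in those other groups. The 5 endothelial and 6 microglia or macrophage markers reached a mean signal of 50 in no group. All differences are on the log2(signal + 20) scale, which understates changes of dim genes. They were tested with limma on all 8 arrays, with Benjamini-Hochberg adjustment over the 15679 probe sets and a threshold of 0.05. In such bulk samples, fewer cells of a type and less RNA per cell cannot be told apart.

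The rcCHIL3 effect differed between the days for 6490 of 15679 probe sets (41.4%; limma), and for 7787 (49.7%) at an unadjusted p. In 2938 (18.7%) it was higher at 7 than at 3 days, and in 3552 (22.7%) it was lower. With all arrays on the deposited scale, divided by 1 common factor, the counts were 3349 and 1636. The share of higher among called probe sets was 45.3% on the main scale and 67.2% on the deposited one, and the median interaction of all probe sets moved from -0.04 to 0.11. The interaction was at least 1 on the log2 scale, a doubling, for 673 probe sets (4.29%) above 0 and 584 (3.72%) below 0. Its median standard error was 0.13. Named as genes by their brightest probe set, 3877 of 8975 had an interaction past the threshold (43.2%), of which 1721 (19.2%) had an interaction above 0 and 2156 (24%) one below 0. The range ran from Dlx1 at -5.88 to Igfbp2 at 4.73.

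A switch of direction, with effects past the threshold on both days and of opposite sign, was searched among the effects of each day. At 3 days 7872 probe sets (50.2%) and at 7 days 6899 (44%) differed between the media. A switch was found for 1205 of the 4056 probe sets that were called on both days. Of these, 662 (4.22% of those measured) went from higher to lower in rcCHIL3, and 543 (3.46%) from lower to higher. On the deposited scale the counts were 223 and 554, so that the more common direction was the other one. The methods' t-test after Benjamini-Hochberg adjustment gave 0 and 4, and the rule that all 4 pairs of arrays differ one way with a 2-fold difference of means gave 39 and 56. More often the effect was past the threshold on 1 day only. For the early time only there were 1420 with more and 1001 with less signal in rcCHIL3, and for the late time only 751 and 837. Without a change of direction the effect shrank in 370 higher and 397 lower probe sets. It grew in 159 higher and 131 lower ones. The scatter of the effects at the 2 times shows the switches at the upper left and lower right.

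**Figure D1:**
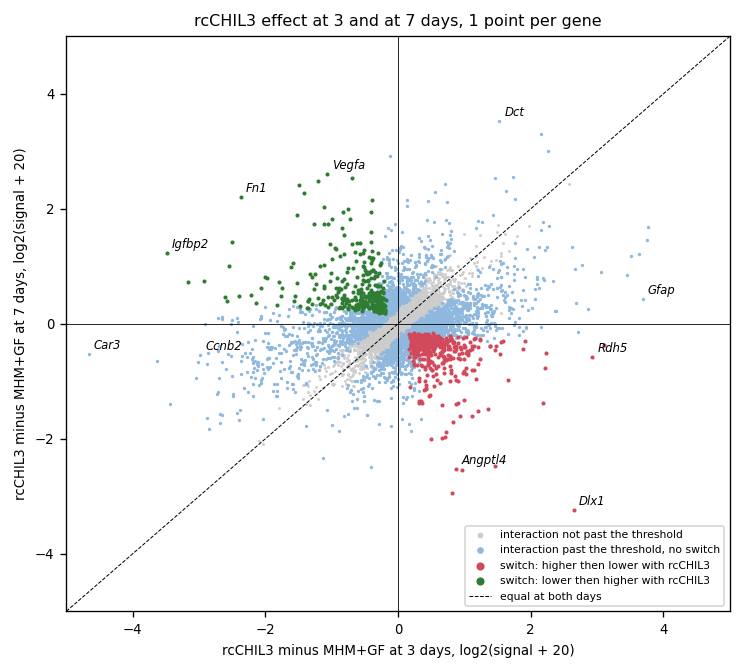
The rcCHIL3 effect at 3 days (x axis) and at 7 days (y axis) for 8975 genes, each as the difference of group means of log2(signal + 20) between rcCHIL3 and MHM + GF. Gray genes had no interaction past the threshold, blue ones did without a switch, and the 428 red and 319 green genes switched direction, with Dlx1 at 2.65 and -3.24 and Igfbp2 at -3.49 and 1.24.

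Most of these interactions came with a change over time in the control. Of the 2938 probe sets with an interaction above 0, 2230 (75.9%) fell from 3 to 7 days in MHM + GF, and 1085 (36.9%) rose in rcCHIL3. Of the 3552 below 0, 2741 (77.2%) rose in MHM + GF and 1256 (35.4%) fell in rcCHIL3. Over all probe sets 8956 (57.1%) changed with time in MHM + GF, 31.1% upward and 26% downward. In rcCHIL3 5617 did (35.8%), 18% upward and 17.9% downward. The change over time was the larger one in MHM + GF for 71.8% of the called probe sets, against 64.1% of all. In the switches this was more marked. MHM + GF rose in 596 of the 662 higher-then-lower probe sets (90%) and fell in 483 of the 543 lower-then-higher ones (89%). In 237 of the former and 244 of the latter, rcCHIL3 moved past the threshold in the opposite direction as well. Since a switch is defined from the same 4 means, these shares describe its shape and are no separate test.

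**Figure D2:**
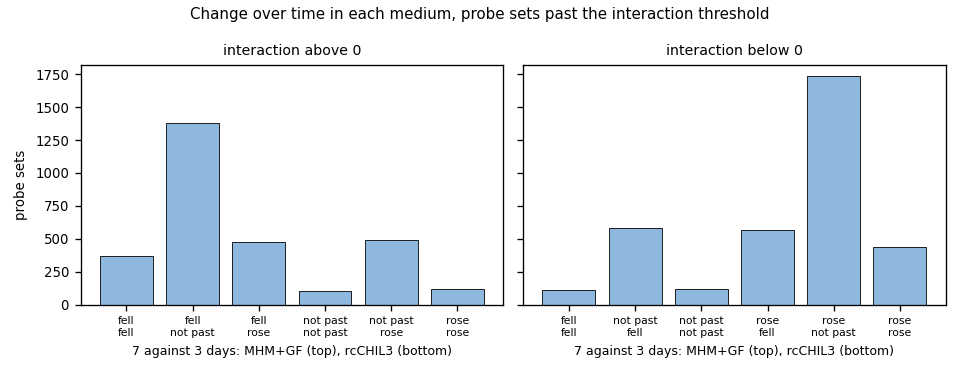
Number of probe sets (y axis) by their change from 3 to 7 days in MHM + GF (upper label) and in rcCHIL3 (lower label), for interactions above 0 (left) and below 0 (right) past the threshold. The highest bars are the 1381 probe sets that fell in MHM + GF only and the 1735 that rose in MHM + GF only.

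The largest switches from higher to lower were those of Dlx1 and Dlx2, which belong to the list of neuroblasts and interneurons, the young neurons that migrate from the adult subventricular zone. Dlx1, a homeobox factor of forebrain interneuron precursors, had signals of 18.1 and 13.5 in MHM + GF at 3 days and 210.5 and 197.2 in rcCHIL3. At 7 days the order was turned, with 540.7 and 546.4 in MHM + GF against 36.9 and 42.9 in rcCHIL3. Its effect went from 2.65 to -3.24, an interaction of -5.88 ± 0.14 (SE, n = 2 arrays per group; limma adjusted p = 5.9e-10). No arrays of the 2 media overlapped on either day, which held for 57.7% of all genes. Its partner Dlx2 read 46.5 and 53.6 against 188.7 and 157.7 at 3 days, and 386.2 and 481.4 against 48.3 and 76.3 at 7 days, MHM + GF first. The interaction was -3.94 ± 0.22 (limma adjusted p = 1.8e-07). Dcx, the microtubule protein that marks migrating neuroblasts and belongs to the same list, was 74.7 and 74.1 against 236.2 and 204.4 at 3 days, and 222.7 and 222.7 against 69.6 and 64.8 at 7 days. For Dcx the 2 media thus exchanged their levels between the times (interaction -2.82 ± 0.13).

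Across the list of 21 measured neuroblast and interneuron genes, 19 had an interaction below 0 past the threshold (24% of all genes) and 1, the tubulin gene Tubb2a (0.44), above 0. Of the 21, 11 switched from higher to lower (4.77% of all genes). Besides those above these were Dlx5, Dlx6os1, Sp8, Nrxn3, Celf4, Elavl4, the GABA-synthesizing enzyme Gad1 and the neuronal tubulin Tubb3. The median interaction was -2.01, against -0.05 over all genes. It lay between -2.79 and -1.37 under the alternatives. From 3 to 7 days 18 of the 21 rose in MHM + GF (34% of all genes) and 15 fell in rcCHIL3 (18% of all genes). The rest of the list did not switch. Among these were Stmn2, Elavl3 and Sox11, which also had an interaction below 0 past the threshold. Sox4, Map2, Stmn1 and Cd24a were lower with rcCHIL3 on both days, more so at 7 days. Tagln3 was higher with rcCHIL3 on both days, at 46.8 and 39.0 against 741.2 and 787.9 at 3 days and 232.7 and 219.6 against 555.7 and 544.0 at 7 days.

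Among markers of mural cells and fibroblasts, Pdgfrb and Rgs5 also rose with time in MHM + GF, while Acta2 fell. The sum over the 6 markers was 98.3 to 108.5 in MHM + GF at 3 days and 466.9 to 517.3 at 7 days, and with rcCHIL3 183.5 to 184.6 and 121.3 to 132.6. Of the 6, 3 were measured, and all 3 had an interaction below 0 (24% of all genes). Pdgfrb, a receptor of pericytes, was at 10.2 and 10 against 41.5 and 35.4 at 3 days and at 187.3 and 211.5 against 17.4 and 17.6 at 7 days, an interaction of -3.50 ± 0.14. Rgs5, a pericyte marker, reached 226.6 and 236.5 in MHM + GF at 7 days and 48.7 and 50 in rcCHIL3. The smooth muscle actin Acta2 fell in both media, from 65.1 and 61.5 to 38.8 and 49.6 in MHM + GF and from 109.2 and 118.9 to 44.5 and 44.4 in rcCHIL3. The part of such cells in the neuroblast result was not tested.

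The other genes with the largest switches from higher to lower had their lowest level in MHM + GF at 3 days, apart from Insm1, which was lowest in rcCHIL3 at 7 days. Rnase1, a secreted ribonuclease, went from 16.3 and 11.7 to 830.8 and 955.8 in MHM + GF, and from 129.7 and 140.6 to 325.6 and 337.4 in rcCHIL3. It rose in both media, so that the switch came from unequal rises (interaction -3.57 ± 0.13). Efemp1, an extracellular matrix protein of the fibulin family, had the same shape, with 15.0 and 24.6 against 305.2 and 335.8 at 3 days and 580.3 and 599.6 against 473.8 and 440.0 at 7 days. Rdh5, a retinol dehydrogenase, crossed instead. It rose in MHM + GF from 91.4 and 86.7 to 555.5 and 584.5 and fell in rcCHIL3 from 858.4 and 762.9 to 373.3 and 379.7 (interaction -3.50 ± 0.10). Insm1, a zinc finger factor of newborn neurons, and Meg3, an imprinted noncoding RNA, also rose in MHM + GF and fell in rcCHIL3, with interactions of -3.76 ± 0.16 and -2.96 ± 0.18. Angptl4, a secreted inhibitor of lipoprotein lipase, stood at 55.9 and 53 against 116.0 and 117.9 at 3 days and at 1022 and 915.1 against 158.2 and 144.3 at 7 days. Its 7-day level in MHM + GF was the one far above the rest.

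**Figure D3:**
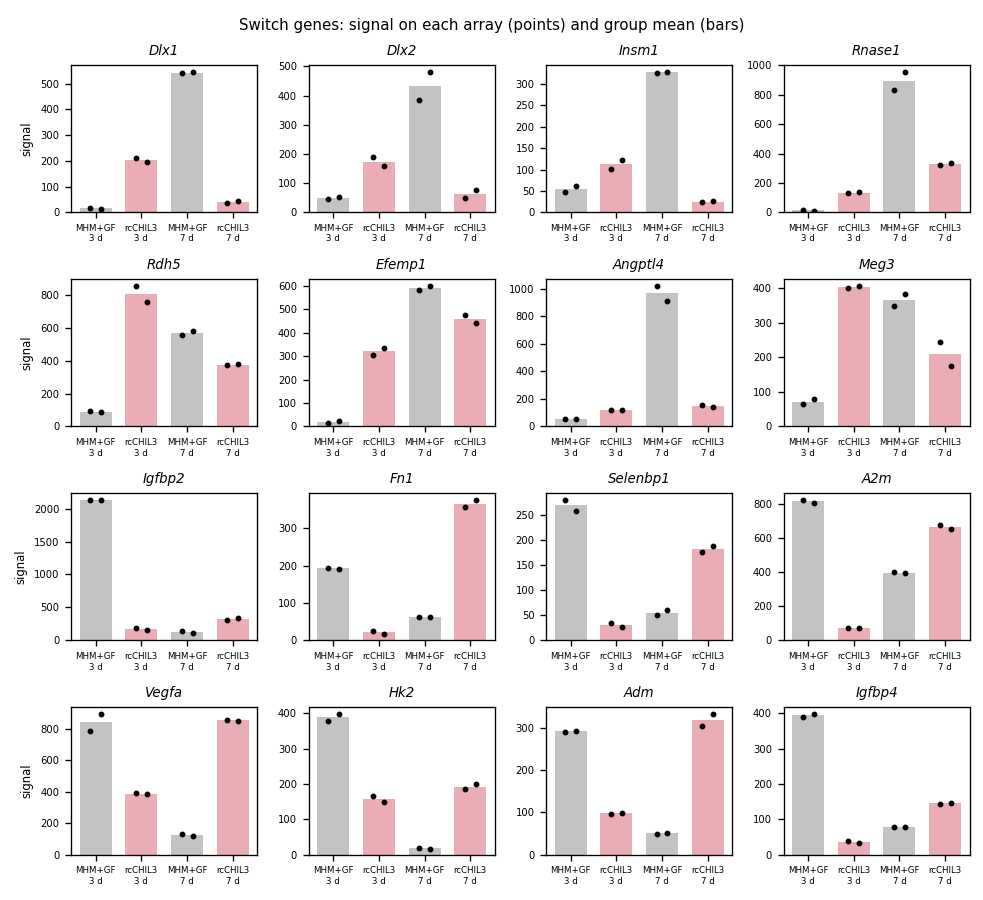
Signal (y axis, array average 100) of the 8 largest switches from higher to lower with rcCHIL3 (top 2 rows) and of the 8 from lower to higher (bottom 2 rows) among genes that reach a group mean of 200 without overlap of the media. Points are the 2 arrays of each group and bars their mean. Dlx1 is highest in MHM + GF at 7 days (540.7 and 546.4), and Igfbp2 in MHM + GF at 3 days (2130 and 2126).

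In the opposite direction, the genes on the list of glycolysis and the response to low oxygen moved nearly as 1 block. Of 27 measured, 26 had an interaction above 0 (19.2% of all genes) and 22 switched from lower to higher (3.55% of all genes). At 3 days 24 of them were lower with rcCHIL3 (22.1% of all genes), with a median effect of -0.76. At 7 days 24 were higher (21.8% of all genes), with a median of 1.41. The median interaction was 2.13, between 2.05 and 2.30 under the alternatives. From 3 to 7 days 25 fell in MHM + GF (24.2% of all genes; median -1.48) and 23 rose in rcCHIL3 (20.4% of all genes; median 0.53). The exception was hexokinase Hk1, at 307.1 and 332.6 against 529.0 and 535.5 at 3 days and 441.2 and 426.6 against 479.5 and 493.2 at 7 days (interaction -0.54 ± 0.09, and -0.38 on the deposited scale with an adjusted p of 0.091).

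The known regulator of this program is the hypoxia-inducible factor, which binds the letters ACGTG within hypoxia response elements. The 250 bases before the start of Ankrd37, Hk2 and Adm are shown because these genes had some of the largest interactions of the list. They are RefSeq sequences of build GRCm38.p6, 5′ to 3′ along the gene, with each ACGTG in capitals, or CACGT where it lies on the other strand.
Ankrd37, chr8:45999851-46000100, minus strand: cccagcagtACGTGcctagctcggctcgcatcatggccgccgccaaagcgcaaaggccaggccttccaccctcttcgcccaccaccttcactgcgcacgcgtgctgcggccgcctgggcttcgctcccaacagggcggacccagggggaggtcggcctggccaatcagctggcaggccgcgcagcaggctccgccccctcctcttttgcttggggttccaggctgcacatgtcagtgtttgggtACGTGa
Hk2, chr6:82774455-82774704, minus strand: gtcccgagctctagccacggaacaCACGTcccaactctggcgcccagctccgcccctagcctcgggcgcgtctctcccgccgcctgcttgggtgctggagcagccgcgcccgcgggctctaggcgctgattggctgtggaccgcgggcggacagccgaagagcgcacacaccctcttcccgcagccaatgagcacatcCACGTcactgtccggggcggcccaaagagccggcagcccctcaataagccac
Adm, chr7:110627407-110627656, plus strand: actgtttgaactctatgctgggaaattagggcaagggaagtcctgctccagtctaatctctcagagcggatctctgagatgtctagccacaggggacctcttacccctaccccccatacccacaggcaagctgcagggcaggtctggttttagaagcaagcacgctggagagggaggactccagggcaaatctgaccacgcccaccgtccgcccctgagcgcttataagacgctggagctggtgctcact
Ankrd37 and Hk2 each hold 2 matches, and the window of Adm holds none. Of the 26 list genes with a promoter in the table, 17 (65.4%) held the letters on either strand, against 1944 of 7389 measured genes (26.3%) and 18.5% of all 27025 genes with a promoter. The list was made from known genes of this response, so an excess of these letters was likely whatever the arrays showed. The share was 32.9% of 252 lower-then-higher genes and 25.1% of 331 higher-then-lower genes. The former class includes list genes, since 22 of the 27 measured switched that way. For all interactions the share was 25.6% above 0 and 25.1% below 0. A match describes the letters only and not binding.

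Ankrd37, a small ankyrin-repeat protein, was at 181.5 and 202.3 against 46.9 and 64.9 at 3 days and at 9.1 and 7.6 against 130.0 and 133.5 at 7 days (interaction 3.91 ± 0.17, limma adjusted p = 2.6e-08). Hk2, the inducible hexokinase of glycolysis, was at 380.1 and 398.6 against 166.8 and 148.6, and then at 19.4 and 16.8 against 184.9 and 200.2. With rcCHIL3 it rose by 0.26 on the log2 scale, while in MHM + GF it fell by 3.43. Vegfa, the vascular growth factor, fell in MHM + GF from 789.0 and 896.2 to 128.6 and 117.4. With rcCHIL3 it rose from 394.1 and 383.7 to 856.2 and 853.5, so that the late rcCHIL3 arrays reached the early control level. Adm, the peptide hormone adrenomedullin, had the same shape (292.0 and 293.4 against 96.5 and 98.4, then 49.8 and 50.7 against 305.2 and 333.7). The abundant glycolytic enzymes followed with smaller sizes. Lactate dehydrogenase Ldha went from an effect of -0.72 to 1.82, pyruvate kinase Pkm from -0.99 to 1.13 and phosphoglycerate kinase Pgk1 from -0.51 to 0.99. The glucose transporter Slc2a1 was 818.2 and 856.1 against 739.3 and 765.2 at 3 days, an effect of -0.15 that missed the threshold, and 278.3 and 302.7 against 942.9 and 986.8 at 7 days. Ndrg1 differed in shape, being low on the early rcCHIL3 arrays and bright on all others (567.3 and 596.7 against 80.6 and 76.4, then 435.4 and 457.2 against 655.3 and 592.6).

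The largest switches from lower to higher outside this list were those of Igfbp2, Fn1, Selenbp1, A2m and Igfbp4. Igfbp2, which binds insulin-like growth factors, was at 2130 and 2126 in MHM + GF at 3 days and between 120.4 and 345.0 on the other 6 arrays. Its effect went from -3.49 to 1.24 (interaction 4.73 ± 0.12, limma adjusted p = 9.5e-10). Igfbp4, of the same family, was at 390.8 and 398.4 against 37.5 and 31.8 and then at 79.0 and 77.6 against 144.3 and 147.1 (3.68 ± 0.12). Igfbp3 did not switch. It was lower with rcCHIL3 on both days, at 410.7 and 413.2 against 70.7 and 69.3 and then at 32.6 and 36.4 against 27.1 and 20.6. Fn1, the matrix protein fibronectin, was at 194.3 and 191.0 against 26.4 and 16.7 at 3 days and at 63.9 and 62.8 against 355.4 and 375.3 at 7 days (4.57 ± 0.15). A2m, a protease inhibitor of the alpha-2-macroglobulin family, was at 823.7 and 807.4 against 73.6 and 73.0 and then at 400.2 and 393.2 against 676.4 and 653.7. Selenbp1, a selenium-binding protein, had an interaction of 3.91 ± 0.15. In Fn1 the rcCHIL3 arrays moved more than the control arrays (3.22 against -1.35), whereas in Igfbp2 the control moved more (-3.85 against 0.88).

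Many cholesterol synthesis genes also switched from lower to higher, but mostly on a falling course in both media. Of 18 measured, 17 had an interaction above 0 (19.2% of all genes) and 12 switched (3.55% of all genes). All 18 fell from 3 to 7 days in MHM + GF (24.2% of all genes), with a median of -1.97. In rcCHIL3 16 fell (18% of all genes) and 2 rose (20.4%), with a median of -0.82. Those that rose were Hsd17b7 (0.25) and Ebp (0.35). At 3 days 13 were lower with rcCHIL3 (22.1% of all genes), with a median of -0.33. At 7 days 16 were higher (21.8% of all genes), with a median of 0.41. Msmo1, a sterol methyl oxidase, was at 1334 and 1379 against 1044 and 930.3 at 3 days and at 341.4 and 299.8 against 610.0 and 628.4 at 7 days (interaction 1.36 ± 0.11). Stard4, which carries cholesterol between membranes, had the largest interaction of the list (1.51 ± 0.11). Hmgcs1, at the head of the pathway, was nearly level between the media, with an effect of -0.16 at 3 days that missed the threshold and 0.20 at 7 days. Sc5d had no interaction past the threshold (-0.06).

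Genes of cell division changed in size and not in direction. All 28 measured mitosis genes had an interaction above 0 (19.2% of all genes), with a median of 1.47, and none switched. At 3 days all 28 were lower with rcCHIL3 (22.1% of all genes), with a median of -2.20. At 7 days 27 still were (22.6% of all genes), with a median of -0.72. The gap narrowed as the control fell. All 28 fell from 3 to 7 days in MHM + GF (24.2% of all genes), with a median of -2.07. In rcCHIL3 22 fell (18% of all genes), with a median of -0.50. Cdc20, an activator of the anaphase-promoting complex, was at 1073 and 1112 against 114.1 and 120.5 at 3 days and at 111.0 and 126.8 against 65.6 and 68.6 at 7 days (interaction 2.35 ± 0.11). The control arrays at 7 days thus lay close to the rcCHIL3 arrays at 3 days. Ccnb2, a mitotic cyclin, had the same form (320.9 and 345.0 against 29.0 and 20.8, then 24.7 and 27.7 against 11.5 and 11.8). Aurka, a spindle kinase, was the 1 mitosis gene not past the threshold at 7 days (20.9 and 23.6 against 18.1 and 11.6).

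Many such genes are controlled over the cell cycle through a cell cycle genes homology region, with the letters TTTGAA. The 250 bases before the start of Cdc20 are shown for it, from RefSeq GRCm38.p6 along the gene, with the match in capitals.
Cdc20, chr4:118437344-118437593, minus strand: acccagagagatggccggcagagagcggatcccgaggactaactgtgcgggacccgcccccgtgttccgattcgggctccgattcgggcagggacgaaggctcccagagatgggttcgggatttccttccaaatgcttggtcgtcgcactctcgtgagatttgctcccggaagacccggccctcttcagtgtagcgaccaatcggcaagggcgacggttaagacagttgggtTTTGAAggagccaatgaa
The letters stood on either strand in 7 of 24 mitosis genes with a promoter (29.2%), against 12.2% of measured genes and 18.3% of all genes. The list was made from known mitosis genes, so this share is no result of the arrays.

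DNA replication genes kept more of their difference. Of 23 measured, 12 had an interaction above 0 (19.2% of all genes) and 1 below 0 (24%), with a median of 0.39. All 23 were lower with rcCHIL3 at 3 days (22.1% of all genes), with a median of -1.38. At 7 days 22 were lower (22.6% of all genes), with a median of -0.88. Mcm7, of the replicative helicase, was the 1 gene with an interaction below 0 (-0.40), which was not past the threshold on the deposited scale (-0.23, adjusted p = 0.33) or as a mean over its probe sets (-0.17, adjusted p = 0.18). Ribosomal protein genes, a reference for growth, had a median interaction of 0.02, and none of 18 was below 0 (24% of all genes). Above 0 were 4 of the 18, a share near the 19.2% of all genes. The count was 2 without the filter, and also without either array of MHM + GF at 3 days, replicate 1 of MHM + GF at 7 days, either array of rcCHIL3 at 3 days or replicate 2 of rcCHIL3 at 7 days.

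Readouts of growth factor signaling had a similar course in the control, where 12 of 19 fell (24.2% of all genes) and 3 rose (34%). Of these 19 measured genes of ERK feedback and immediate early response, 13 had an interaction above 0 (19.2% of all genes). Another 1 was below 0 (24% of all genes), and the median was 0.91. At 3 days 4 were higher with rcCHIL3 (30.3% of all genes) and 8 lower (22.1%), with a median of -0.10. At 7 days 6 were higher (21.8% of all genes) and 4 lower (22.6%), with a median of 0.14. Etv5, a transcription factor downstream of FGF and ERK, was at 398.8 and 324.1 against 35.8 and 29.1 at 3 days and at 155.9 and 132.1 against 95.7 and 96.2 at 7 days (interaction 2.36 ± 0.16). It fell in MHM + GF and rose in rcCHIL3. The ERK phosphatase Dusp6 and the feedback inhibitors Spry1, Spry4 and Spred2 were lower with rcCHIL3 at 3 days only. Cyclin D1, Ccnd1, was at 870.8 and 861.5 against 133.0 and 128.4 and then at 134.6 and 132.2 against 82.8 and 89.2. Immediate early genes were in part higher with rcCHIL3. Egr2 and Ier2 were higher on both days and more so at 7 days, with effects of 0.31 and 1.22 and of 0.36 and 0.67. Fosb, Ier3 and Phlda1 were higher at 7 days only (0.88, 1.05 and 1.12). Junb was higher on both days (1.00 and 0.71) without an interaction past the threshold, and Fos and Egr1 had none either. Egfr, the receptor of EGF, was at 845.6 and 792.6 against 214.7 and 217.9 and then at 756.9 and 843.5 against 380.1 and 374.9. It did not change with time past the threshold in MHM + GF and rose in rcCHIL3 (0.75), giving an interaction of 0.78 ± 0.10. Myc, the 1 gene below 0 (-0.36), was not past the threshold without the filter (adjusted p = 0.078) or on the deposited scale (adjusted p = 0.47). Leaving out any 1 array other than replicate 1 of MHM + GF at 3 days or replicate 2 of MHM + GF at 7 days also lost the call, with adjusted p between 0.069 and 0.13.

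Some genes were bright in MHM + GF at 3 days and dim in every other group. Car3, a carbonic anhydrase, was at 689.0 and 849.8 there and between 0.9 and 15.4 on the other 6 arrays (interaction 4.13 ± 0.19). Grm5, a metabotropic glutamate receptor, was at 396.1 and 444.6 against 13.2 to 36.5 elsewhere. Anxa3, an annexin, Adam12, a metalloprotease, and the heat shock gene Hspa1a were also brightest there and lower with rcCHIL3 at 3 days only. So was the heat shock gene Hspa1b, at 1561 and 1364 against 209.8 and 203.1 at 3 days and between 85.0 and 108.6 on the 4 arrays of 7 days. Hspa1a and Hspa1b are near-identical copies, and their probe sets may share transcripts. The stem cell filament Nes was at 186.9 and 186.4 in that group and between 8.7 and 32.2 in the others (1.62 ± 0.19).

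Many astrocyte genes showed the reverse course, being higher with rcCHIL3 early and with less or no difference late. Of 21 measured astrocyte genes, 11 had an interaction below 0 (24% of all genes) and 7 above 0 (19.2%), with a median of -0.61. At 3 days 12 were higher with rcCHIL3 (30.3% of all genes) and 4 lower (22.1%), with a median of 0.57. At 7 days 11 were higher (21.8% of all genes) and 1 lower (22.6%), with a median of 0.28. Gfap, the astrocyte filament, was at 57.6 and 46.3 against 841.6 and 978.4 at 3 days and at 1101 and 1189 against 1538 and 1555 at 7 days (interaction -3.26 ± 0.13). Clu, the chaperone clusterin, was at 477.6 and 490.4 against 2183 and 2240 and then at 2663 and 2740 against 2539 and 2695, so that no difference past the threshold was left (-2.19 ± 0.08). The water channel Aqp4 had the same form (-1.40 ± 0.08). Other astrocyte genes went the opposite way. Acsbg1, an acyl-CoA synthetase, and the receptor Fgfr3 switched from lower to higher, with interactions of 1.52 ± 0.11 and 1.13 ± 0.09, and the glutamate transporter Slc1a2 was higher with rcCHIL3 at 7 days only.

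BMP signals drive NSCs toward astrocytes and act through the Id genes. Of 9 measured genes of this list, 5 had an interaction below 0 (24% of all genes), and 2 had one on the deposited scale. None was above 0 (19.2% of all genes), and the median was -0.35. Id4 was at 326.4 and 375.7 against 1331 and 1454 at 3 days and at 1741 and 1624 against 1668 and 1553 at 7 days (-1.99 ± 0.11). Id1 and Id3 were higher with rcCHIL3 by nearly the same amount on both days (0.78 and 0.94, 0.70 and 0.78), with no interaction past the threshold. Bmp4 was at 168.4 and 162.1 against 508.0 and 448.9 and then at 123.2 and 101.0 against 131.9 and 129.2. The antagonist Nog was under the filter and not tested, at 6.8 and 8.5 against 22.0 and 20.8 at 3 days and at 3.1 and 3.4 against 2.4 and 0.4 at 7 days.

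In the oligodendrocyte lineage nearly all progenitor genes fell in both media, whereas most myelin genes stayed higher with rcCHIL3. Of 12 progenitor genes 6 had an interaction below 0 (24% of all genes) and 2 above 0 (19.2%), with a median of -0.26. With time 11 fell in MHM + GF (24.2% of all genes) and 11 in rcCHIL3 (18%). Enpp6, a phosphodiesterase of newly formed oligodendrocytes, was at 112.4 and 150.8 against 554.6 and 665.2 at 3 days and at 122.7 and 83.6 against 146.7 and 143.6 at 7 days (-1.62 ± 0.22). Gpr17, a receptor of the same stage, was at 454.9 and 408.7 against 926.6 and 897.5 and then at 316.2 and 337.1 against 285.7 and 299.3. Of 13 myelin genes 8 had an interaction below 0 (24% of all genes) and 4 above 0 (19.2%), with a median of -0.48. With rcCHIL3 11 were higher at 3 days (30.3% of all genes) and 9 at 7 days (21.8%). Cldn11, the tight junction protein of myelin, was at 119.1 and 113.1 against 620.9 and 603.2 and then at 426.5 and 388.5 against 989.8 and 1041. It rose with time in both media. Opalin and Tspan2, membrane proteins of oligodendrocytes, were higher on both days and more so at 7 days. On the deposited scale 3 myelin genes had an interaction below 0 and 4 above 0.

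Genes with an effect at 7 days only moved in 1 medium or diverged late. Gbe1, the glycogen branching enzyme, was between 36.8 and 67.6 on the other 6 arrays and at 460.7 and 412.7 with rcCHIL3 at 7 days (interaction 3.04 ± 0.24). Tfrc, the transferrin receptor, showed no difference past the threshold at 3 days (639.9 and 645.1 against 645.3 and 601.4) and was then at 243.8 and 261.4 against 887.8 and 889.1 (1.78 ± 0.09). In the other direction Hes5, the main Notch effector of NSCs, was at 862.5 and 874.9 against 921.5 and 1025 and then at 457.9 and 333.1 against 105.5 and 98.9 (-1.91 ± 0.16). It fell in both media and further in rcCHIL3. Scg3, a granin of secretory granules, was at 288.5 and 341.6 against 85.6 and 86.9 at 7 days and showed no difference past the threshold at 3 days.

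Most of the Notch list was lower with rcCHIL3, 8 of 13 at 3 days (22.1% of all genes) and 9 at 7 days (22.6%). Of the 13, 7 had an interaction above 0 (19.2% of all genes) and 4 below 0 (24%), with a median of 0.38. The ligands Dll1, Dll3 and Jag1 were lower on both days, and the feedback gene Nrarp at 3 days only. Some genes were higher with rcCHIL3 on both days and more so at 7 days. Dct, a melanin pathway enzyme also found in neural progenitors, was at 10.3 and 3.3 against 53.9 and 59.9 and then at 30.4 and 26.3 against 546.6 and 520.5 (1.99 ± 0.18). Mal, a membrane protein of myelin, was at 337.5 and 330.4 with rcCHIL3 at 7 days and between 5.1 and 75.1 elsewhere. In the other direction, Mdk, the growth factor midkine, was lower on both days (181.2 and 201.9 against 76.3 and 77.3, then 282.6 and 253.9 against 36.4 and 37.9). So was Ncan, the proteoglycan neurocan, with an interaction of -0.85 ± 0.08.

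Stress and surface genes split. The counts below stand against 19.2% of all genes with an interaction above 0 and 24% with one below 0. Of 25 genes of the unfolded protein and amino acid response, 11 had an interaction above 0 and 6 below 0 (median 0.19). Atf5, a transcription factor of this response, was at 74.5 and 64.8 against 428.4 and 468.7 at 3 days and at 149.6 and 143.3 against 190.8 and 159.8 at 7 days (-2.16 ± 0.14). Its relative Atf4 went the other way (0.78 ± 0.10), and the chaperone Hspa5 switched from lower to higher (0.89 ± 0.08). Of 10 interferon response genes, 4 had an interaction above 0 and 2 below 0. Ifitm3, an antiviral membrane protein, was at 336.8 and 297.3 against 233.5 and 239.1 and then at 125.0 and 139.1 against 692.4 and 617.9 (2.54 ± 0.12). Of 16 p53 targets, 6 were above 0 and 2 below 0 (median 0.16), while 8 had no interaction past the threshold. Over all genes 43.2% had one, so this list lay near that share. Cdkn1a, an inhibitor of the cell cycle, was higher with rcCHIL3 at 7 days only. Of 10 cilia genes 3 were above 0 and 1 below 0 (median 0.12). Foxj1, the master factor of motile cilia, was higher with rcCHIL3 on both days without an interaction past the threshold (38.1 and 41.2 against 106.5 and 110.6, then 129.5 and 149.1 against 269.1 and 281.0). Of 9 TGF-beta and CCN genes, 3 were above 0 and 3 below 0, with Tgfb2 among the switches from higher to lower (-1.88 ± 0.12).

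The interactions of neural stem cell genes had no common direction. Of 16 measured, 7 had an interaction below 0 (24% of all genes) and 4 above 0 (19.2%). The median was -0.07, and 0.08 on the deposited scale. At 3 days 4 were higher with rcCHIL3 (30.3% of all genes) and 7 lower (22.1%), with a median of -0.17. At 7 days none was higher (21.8% of all genes) and 10 were lower (22.6%), with a median of -0.33. Sox2 and the fatty acid binding protein Fabp7 had no interaction past the threshold. Pax6, a transcription factor of neural progenitors, switched from higher to lower (132.3 and 150.4 against 174.2 and 165.5, then 313.2 and 329.3 against 214.2 and 203.9).

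Chil3 itself was at signals of 0.4 to 2.3 on all 8 arrays and under the filter. The transfected gene was in the conditioning cells, so that its RNA in the NSCs does not check the medium. Of the genes of the CHIL3 family and of the receptors known for its relative CHI3L1, 5 were measured. Lgals3, the lectin galectin-3, rose with time in both media, from 19.7 and 27.4 to 301.9 and 397.3 in MHM + GF and from 113.9 and 110.2 to 438.9 and 475.3 with rcCHIL3 (-1.23 ± 0.17). The hyaluronan receptor Cd44 was higher with rcCHIL3 on both days, less so at 7 days (-0.73 ± 0.12).

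**Figure D4:**
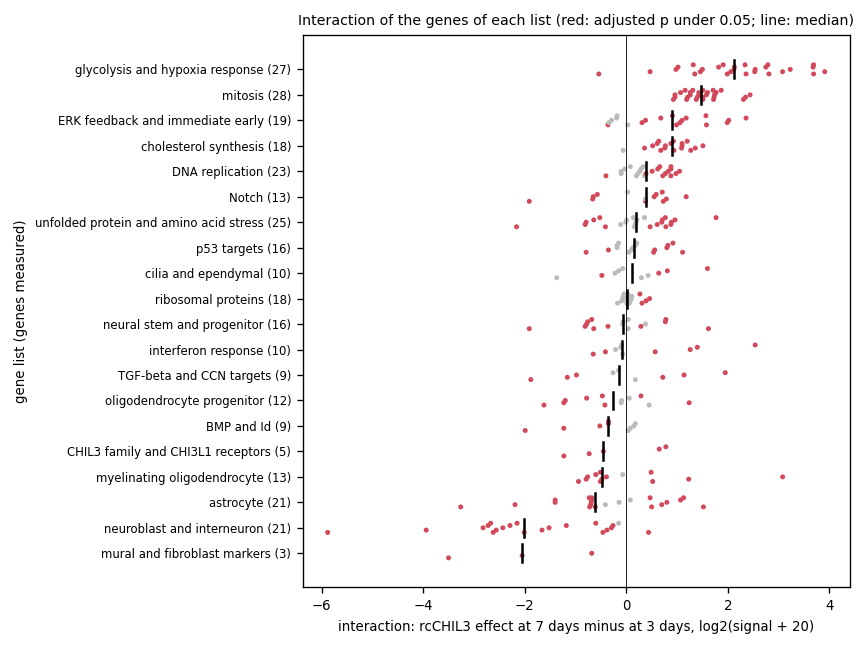
Interaction (x axis, log2 scale) of each measured gene of 20 lists, with the number of genes in brackets. Red points are past the adjusted threshold, gray ones are not, and the black line is the median, which runs from 2.13 for glycolysis and hypoxia and 1.47 for mitosis to -2.01 for the 21 neuroblast and interneuron genes and -2.05 for the 3 mural and fibroblast markers.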

How the data were processed

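Total RNA of NSCs in 4 groups of 2 samples was hybridized to 8 Affymetrix mouse arrays. The authors made the deposited intensities, which are linear signals, with MAS5 (Affymetrix Expression Console 1.1 per the labels) and a global scaling. The deposited array averages were 267.3 to 316.6, so each array was rescaled to an average of 100. The number of arrays limits the precision, and array depth has no count. Of 45101 probe sets, 64 controls were left out, and those with a signal of at least 50 on at least 2 arrays were kept. A gene is the kept probe set with 1 symbol and the highest mean. Of 45101 probe sets, 34958 have 1 symbol, 932 several and 9211 none in the platform annotation.

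With limma 3.58.1 (R 4.3.3), 4 group means of log2(signal + 20) were estimated, with a variance trend in eBayes, 4 residual degrees of freedom and two-sided Benjamini-Hochberg adjusted p. The contrasts were the interaction, rcCHIL3 against MHM + GF at each day and 7 against 3 days in each medium. Counts and plots were made in Python 3.11.15 with numpy 2.4.6, pandas 2.3.3 and matplotlib 3.10.9. On simulated data 41 of 67 interactions of 1.5-fold (61.2%), all 67 of 2-fold and all 66 of 4-fold were recovered, with 8 false calls in 15479. The simulation had no interaction in 15479 of 15679 probe sets and independent noise between them, whereas 41.4% were called in the data. The 8 false calls therefore do not give the error rate of the calls made here. Arrays with the same replicate number deviated together from their groups only weakly (r between -0.0106 and 0.102). The highest values were those of the 2 media on the same day (0.102 at 3 days, 0.0829 at 7 days). Whether the numbers mark a shared experiment is not settled.

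Genes named are the 8 largest switches in each direction and the 4 largest of each other class (group mean of at least 200, with switches also free of overlap), up to 3 per list by a fixed rule, and Chil3, Egfr, Dcx and Nog. Further list members were picked as examples after their values were seen. The comparison, the 22 lists and the rules were chosen with earlier results of these data known. Promoters were taken from the RefSeq table for 7389 of the 8975 genes. Alternatives were other offsets, filters, scalings, variance settings, a replicate block, the methods' t-test, a pairwise rule, the mean over probe sets, and leaving out each array.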

Additional observations from a re-analysis of the deposited data

Results flagged for a closer look

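The rcCHIL3 effect differed between 3 and 7 days by the interaction test for 2938 probe sets with a higher and 3552 with a lower effect at 7 days, and it switched direction in 662 and 543. The genes below, named by rule, each passed that test. Their interactions on the log2(signal + 20) scale stand in brackets. Switches from higher to lower were Dlx1 (-5.88), Dlx2 (-3.94), Insm1 (-3.76), Rnase1 (-3.57), Pdgfrb (-3.50), Rdh5 (-3.50), Efemp1 (-3.46), Angptl4 (-3.41), Meg3 (-2.96), Dcx (-2.82), Tgfb2 (-1.88) and Pax6 (-0.81). Switches from lower to higher were Igfbp2 (4.73), Fn1 (4.57), Selenbp1 (3.91), Ankrd37 (3.91), A2m (3.88), Vegfa (3.69), Hk2 (3.69), Adm (3.68), Igfbp4 (3.68), Ndrg1 (3.08), Ifitm3 (2.54), Vldlr (1.77), Rsph1 (1.60), Acsbg1 (1.52), Stard4 (1.51), H2-K1 (1.40), Msmo1 (1.36) and Cspg4 (1.24).

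Effects above 0 at 3 days only were those of Fxyd1 (-2.85), Clu (-2.19), Atf5 (-2.16), Cidea (-2.02), Id4 (-1.99), Bmp4 (-1.23), Mbp (-0.79), Ifit2 (-0.65), Hk1 (-0.54), Enkur (-0.48) and Myc (-0.36). Effects below 0 at 3 days only were those of Anxa3 (2.90), Hspa1b (2.82), Hspa1a (2.77), Adam12 (2.72), Nrarp (1.18), Gtse1 (1.11), Pdia6 (0.96), Rpl14 (0.46), Tubb2a (0.44) and Rpl22 (0.39). Effects above 0 at 7 days only were those of Gbe1 (3.04), Slc2a1 (1.82), Tfrc (1.78), Tmem176a (1.54), Tgfbi (1.14) and Dynlrb2 (0.81). Effects below 0 at 7 days only were those of Rgs5 (-2.05), Tcl1b3 (-2.01), Hes5 (-1.91) and Scg3 (-1.72).

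Higher on both days and more so at 7 days were Dct (1.99), Hspb6 (1.73), Mal (1.67), Pvalb (1.38) and Phlda3 (0.92). Higher on both days and less so at 7 days were Gfap (-3.26), Padi2 (-2.61), Hspb8 (-2.60), Tagln3 (-2.43), Enpp6 (-1.62), Lgals3 (-1.23), Cldn11 (-0.94) and Cd44 (-0.73). Lower on both days and more so at 7 days were Mdk (-1.21), Kcne1l (-1.06), Rimklb (-1.03), Ncan (-0.85), Perp (-0.79) and Mcm7 (-0.40). Lower on both days and less so at 7 days were Car3 (4.13), Grm5 (3.00), Ccnb2 (2.44), Etv5 (2.36), Cdc20 (2.35), Ccnd1 (2.02), Igfbp3 (1.95), Nes (1.62), Rrm1 (1.05), Rfc4 (0.98), Jag1 (0.79) and Egfr (0.78).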

How the results depend on the processing

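The counts of interactions and switches stayed within 1.5 times their reported values under both offsets, both filters, quantile normalization, median centring, both variance settings and the replicate block. With the replicate block 3087 probe sets were higher, 3668 lower, 705 switched from higher to lower and 580 from lower to higher. On the deposited scale 1636 probe sets had a lower effect at 7 days and 223 switched from higher to lower, of which 221 were among the 662, while 554 switched from lower to higher. The methods' t-test found 427 switches from higher to lower at its unadjusted threshold on both days, and after Benjamini-Hochberg adjustment 0 and 4 in the 2 directions. The pairwise rule with at least 2-fold differences gave 39 and 56. The cause of these differences was not tested, except that the t-test has fewer degrees of freedom and the pairwise rule a limit on size. Without each array in turn the counts ranged from 2303 to 2900 (higher), 2746 to 3332 (lower), 461 to 585 (higher to lower) and 407 to 561 (lower to higher). Of 1744 interactions of the 92 named genes under the alternatives, 1729 kept their direction and side of the threshold. Another 15 kept their direction only, in Enkur, Myc, Hk1, Mcm7 and Rpl14. None reversed. The effects of each day, and so the class of a named gene as a switch, were not compared in this way. Some named switches had a small effect on 1 day, as Efemp1 (-0.36) and Tgfb2 (-0.29) at 7 days and Pax6 (0.24) at 3 days. Enkur was lost with an offset of 50 (-0.24), on the deposited scale (-0.37) and without rcCHIL3 replicate 1 at 3 days (-0.44), and Rpl14 without rcCHIL3 replicate 2 at 3 days (0.41). Medians of the neural stem, TGF-beta and interferon lists were near 0 and changed sign on the deposited scale (0.08, 0.01 and 0.07). Calls within lists that rest on few genes moved by over 1.5 times under some offsets, filters, scalings, variance settings or single arrays left out. Above 0 these included the cilia (1 to 4), oligodendrocyte progenitor (1 to 3), CHIL3 family (1 to 2), ribosomal (2 to 4) and myelin (2 to 4) lists. Below 0 they included the interferon (1 to 3), cilia (0 to 3), ERK (0 to 2) and p53 (1 to 2) lists. Signals near the background limit what can be said of dim genes, whose differences the offset shrinks.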

Other observations

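More than 1 probe set was kept for 3276 genes, and in 59 of them there were interactions past the threshold in both directions. Of the 273 switch genes with several, 167 had all of them past the threshold one way and 8 had one in the other direction. The amino acid response letters TGATGNAA stood in 5 of 23 promoters of the unfolded protein and amino acid list (21.7%). They stood in 2.11% of measured genes and 3.91% of all genes. This list too was made from known genes of the response, so the share is no result of the arrays. Ttr, the transthyretin gene of choroid plexus, varied widely between the arrays of a group, at 30.3 and 171.1 in MHM + GF and 146.2 and 477.4 with rcCHIL3 at 3 days and at 282.4 and 549.3 and 561.3 and 361.3 at 7 days. Its interaction of -1.37 ± 0.82 was not past the threshold.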
